A study of Homo sapiens with 4 samples.

Results

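Genes that are commonly read as marks of epithelial or mesenchymal identity, namely CDH1, EPCAM, ESRP1, CDH2, VIM, FN1, CD44, ZEB1, ZEB2 and SNAI2, were followed in 2 human prostate cancer cell lines with and without atorvastatin (ATO). They were chosen by name, with earlier results of these data known. Every gene probe of the array that carried one of these names was used. This gave 10 genes with 13 probes on 22 spots, of 27274 gene names, 34127 probes and 43118 gene spots in all. Messenger RNA was measured on 1-colour Agilent arrays of 60-base probes. LNCaP is an androgen-dependent line from a lymph node metastasis, PC3 an androgen-independent line from a bone metastasis, and ATO a statin that inhibits the synthesis of mevalonate. Cells of both lines were grown in RPMI with serum and were still sparse when the ATO groups received 10 µM ATO for 24 h, and the labels describe the controls as untreated. Each of the 4 groups, control and ATO in either line, was hybridised to 1 array, so differences between 2 arrays have no replicates behind them and precision is limited by how few arrays there are. Each line is a single established line without a second line of its kind.

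Epithelial cells are held together by E-cadherin, the product of CDH1, whose tail is tied to actin through beta-catenin and alpha-catenin. In the change known as the epithelial to mesenchymal transition, cells lower E-cadherin and other epithelial proteins and gain N-cadherin (CDH2), the intermediate filament vimentin (VIM) and the matrix protein fibronectin (FN1), and CD44, a hyaluronan receptor, is often high in cells of mesenchymal or stem-like kind. The transcription factors ZEB1, ZEB2 and SNAI2 (SLUG) repress CDH1 through E-box sequences, while ESRP1 keeps the epithelial pattern of splicing and EPCAM is an adhesion molecule of epithelial cells.

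The sequences of 2 probes are given because the wide gap in VIM and the lack of FN1 signal each rest on a single probe. Both probes cover 60 bases of transcript that span more than 60 bases of genome, 910 for VIM (hg18, chr10:17318353-17319262, plus strand) and 679 for FN1 (hg18, chr2:215996462-215997140, minus strand), so each crosses a splice junction. The array design assigned the FN1 probe to transcript variant 7.
VIM probe: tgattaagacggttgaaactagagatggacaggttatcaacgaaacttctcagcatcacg
FN1 probe: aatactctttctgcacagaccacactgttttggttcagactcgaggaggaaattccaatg

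The 250 bases before the transcription start are given for VIM, CDH2 and CD44, the genes with the widest gap between the lines, from RefSeq (GRCh38.p14). Capitals mark GC boxes (GGGCGG or its reverse complement CCGCCC) and CCAAT boxes (CCAAT or ATTGG). The set of promoter sequences used held an entry for 6 of the 10 members, and none for CDH1, SNAI2, EPCAM and ESRP1. Where a gene had several starts, the outermost was taken.
VIM (chr10:17227991-17228240, plus strand): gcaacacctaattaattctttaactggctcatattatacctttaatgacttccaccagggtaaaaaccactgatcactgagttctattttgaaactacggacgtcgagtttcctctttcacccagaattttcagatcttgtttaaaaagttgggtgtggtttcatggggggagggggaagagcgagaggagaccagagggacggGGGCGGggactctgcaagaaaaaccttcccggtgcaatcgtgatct
CDH2 (chr18:28177131-28177380, minus strand): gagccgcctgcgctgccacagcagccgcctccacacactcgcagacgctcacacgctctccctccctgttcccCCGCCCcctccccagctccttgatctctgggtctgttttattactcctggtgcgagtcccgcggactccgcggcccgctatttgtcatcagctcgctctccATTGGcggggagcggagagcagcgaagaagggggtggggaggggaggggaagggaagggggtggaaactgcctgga
CD44 (chr11:35138921-35139170, plus strand): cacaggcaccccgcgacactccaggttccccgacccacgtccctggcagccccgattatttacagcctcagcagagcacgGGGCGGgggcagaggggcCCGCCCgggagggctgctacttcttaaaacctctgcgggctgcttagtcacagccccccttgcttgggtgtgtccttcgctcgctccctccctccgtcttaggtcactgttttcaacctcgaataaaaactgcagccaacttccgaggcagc

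The VIM window held 1 GC box, the CD44 window 2, and the CDH2 window 1 GC box and 1 CCAAT box on the reverse strand. A GC box was found in 42.6% and a CCAAT box in 32.01% of all 35116 promoter windows of this length. The E-box CACCTG, read on both strands, was in none of these 3 windows, and among the 6 members with an entry it was found once, 57 bases before the start of ZEB1, against 17.5% of all windows. Neither the AP-1 sequence TGANTCA (6.57% of all windows) nor TATAAA on either strand (10.7%) occurred in any of the 6. These are matches of letters, and no binding was measured.

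Processed intensities are given in scanner units. The scaled level is the intensity divided by the 75th percentile of its array, which lay between 496.8 and 590.3 units. A probe is called measured on an array where the software marked it well above background, as it did for 48.5% to 52.9% of the spots, and the lowest intensity so marked was 27.4 units on the LNCaP control array and 52.1 to 54.7 on the others. Differences are in log2 of the scaled level. Copies of a probe on 1 array differed by a median SD of 0.09 to 0.10, which is the error of the printing and scanning alone. Of the 7 genes listed as LNCaP markers, all were measured on both LNCaP arrays and 3 on the PC3 arrays, and of 5 PC3 markers all were measured on both PC3 arrays, 1 on the LNCaP control array and 0 on the LNCaP ATO array. Local background was bright at 0.348% of spots on the LNCaP control array and at 8.35% to 15.3% on the others.

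Measured values on all 4 arrays were obtained for 5 members, CDH1, EPCAM, ESRP1, VIM and SNAI2. CDH2, CD44 and ZEB1 were measured on the PC3 arrays alone, and FN1 and ZEB2 on no array. These arrays compare the lines in bulk, so a smaller share of cells of one kind and less RNA per cell cannot be told apart.

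**Figure D1:**
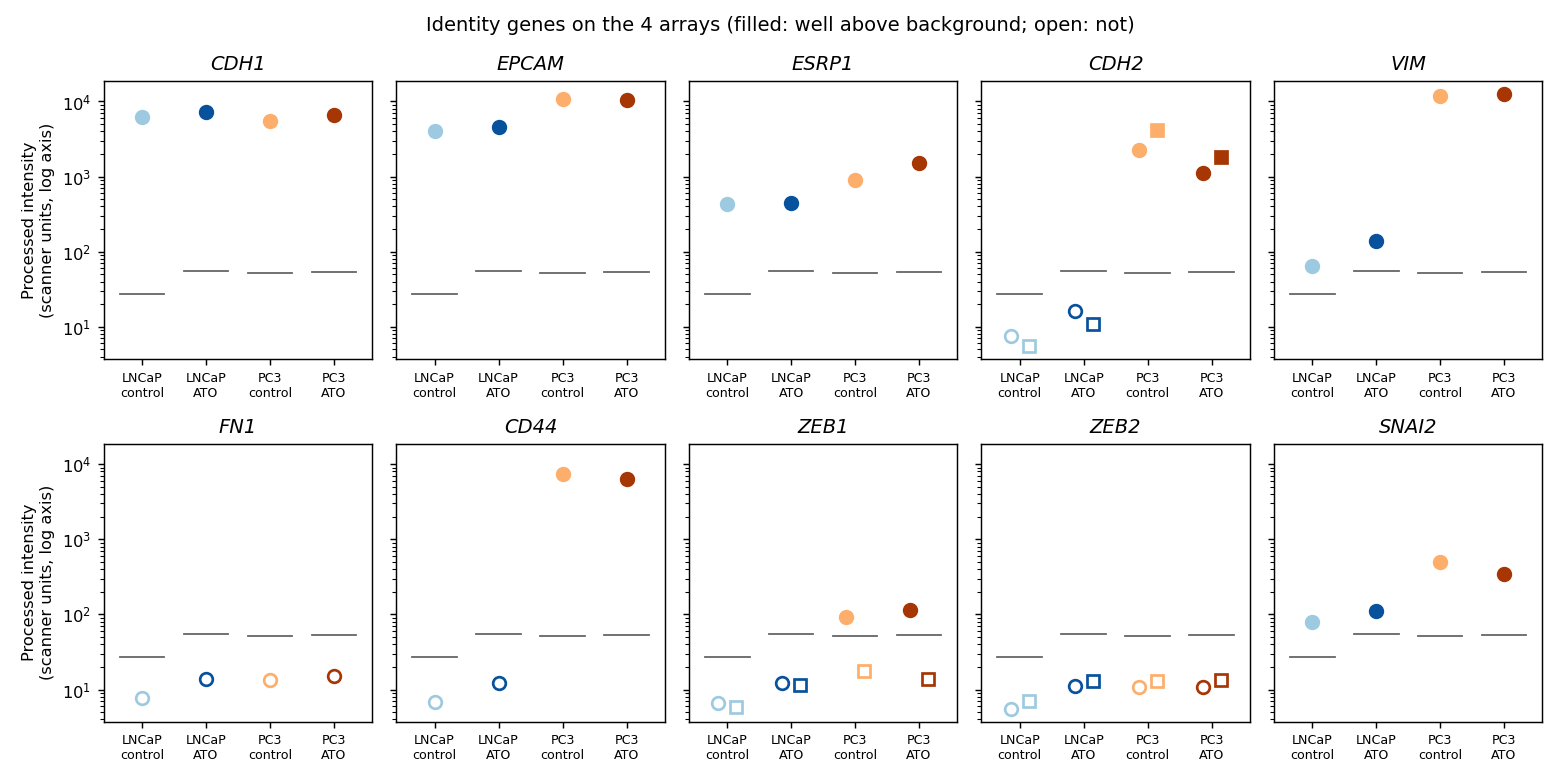
Processed intensity (scanner units, log axis) of each member on the 4 arrays, with circles and squares for the probes of a gene, filled where well above background and open where not, and grey bars for the lowest intensity so marked on each array. CDH2, VIM and CD44 lie between 1119 and 12707 units in PC3 cells and at 138 or less in LNCaP cells, whereas CDH1 lies between 5576 and 7355 on all arrays (geometric means of its copies).

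CDH1, the E-cadherin gene, was strongly expressed in both lines (hg18, chr16:67426715-67426774). Its probe was printed 10 times on each array. The mean intensity was 6236 ± 344 on the LNCaP control array (SD of spots, n = 10), 7370 ± 507 on the LNCaP ATO array (n = 10), 5588 ± 396 on the PC3 control array (n = 9) and 6596 ± 391 on the PC3 ATO array (n = 10). As a ratio, the highest and the lowest of these means lie closer together than those of any other member measured on all 4 arrays. On the PC3 control array 1 further spot, at 9079 units, was marked an outlier by the software and left out. In scaled levels, the spots of the LNCaP control array ran from 11.7 to 14.01 and those of the PC3 control array from 8.46 to 10.6, so the 2 sets of copies did not overlap. The line difference was nonetheless small: CDH1 was 1.33-fold lower in PC3 than in LNCaP control cells and 1.19-fold lower between the ATO arrays, and scaling on spike-in probes turned both differences to the other sign (0.11 and 0.01 in log2), while the 50th percentile widened them to -0.85 and -0.48. Each copy set comes from 1 RNA sample, so the spot SD says nothing of the spread between cultures.

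**Figure D2:**
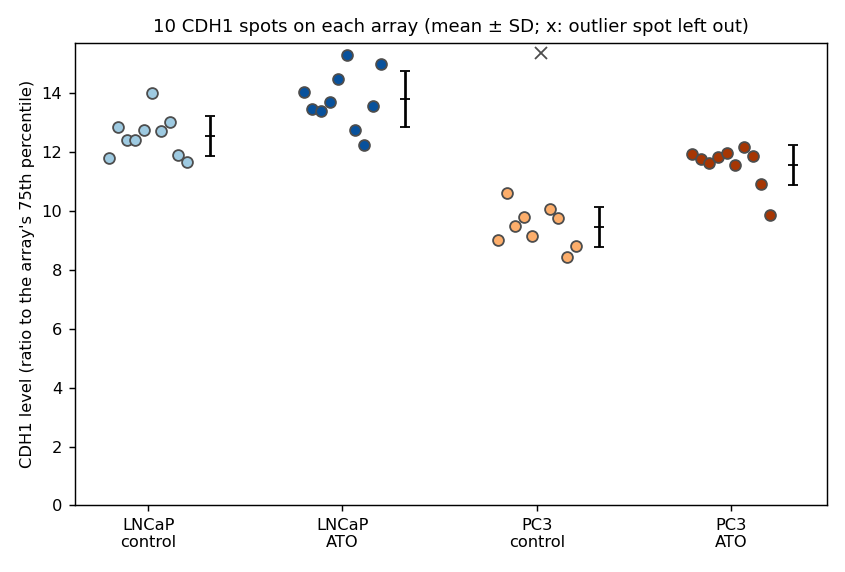
Level of each CDH1 spot, as a ratio to the 75th percentile of its array (linear axis from 0), with the mean ± SD of the spots beside it and a cross for the outlier spot. The means are 12.6 and 13.8 in LNCaP cells and 9.47 and 11.6 in PC3 cells, each with ATO second.

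EPCAM, the epithelial adhesion molecule, gave 3994 units on the LNCaP control array, 4577 with ATO, 10880 on the PC3 control array and 10512 with ATO. It was thus higher in PC3 cells, by 2.29-fold between controls and 2.15-fold between ATO arrays, although PC3 is the line with high VIM, CDH2 and CD44. Scaling on the 50th percentile left these differences at 0.76 and 0.88 in log2, under 2-fold. ESRP1, the epithelial splicing factor, gave 434 and 448 units in LNCaP cells and 899 and 1503 in PC3 cells, control first. PC3 cells exceeded LNCaP cells by 1.74-fold in control and by 3.14-fold after ATO. All 3 epithelial members were thus well above background in the line with high VIM, CDH2 and CD44. FN1 and ZEB2 were not above background there.

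VIM, the vimentin gene, gave 65.3 units on the LNCaP control array, 138 on the LNCaP ATO array, 11670 on the PC3 control array and 12707 on the PC3 ATO array. PC3 exceeded LNCaP by 150-fold in control and by 85.9-fold with ATO. The LNCaP values were low but marked well above background on both arrays, so these are measured folds. The PC3 ATO spot of VIM lay in bright local background, 158.5 units against a limit of 116.7.

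CDH2, the N-cadherin gene, has 2 probes (hg18, chr18:23784934-23784993 and chr18:23786079-23786138, both on the minus strand). The brighter gave 5.49 and 10.97 units in LNCaP cells, not well above background, and 4125 and 1829 in PC3 cells, control first. The other gave 7.52 and 16.2 in LNCaP cells, again not well above background, and 2244 and 1119 in PC3 cells. Both probes therefore place CDH2 in PC3 cells alone, at least 127-fold higher by the brighter and at least 69.1-fold by the other in control, and at least 31.3-fold and 19.1-fold with ATO. These bounds set the PC3 level against the lowest level marked well above background on the LNCaP array.

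CD44, the hyaluronan receptor, gave 6.81 and 12.3 units in LNCaP cells, not well above background, and 7404 and 6414 in PC3 cells, control first. Its bound was the highest among the members, at least 228-fold in control and at least 110-fold with ATO. The bounds are lower with ATO partly by construction, since the lowest marked intensity on the LNCaP ATO array, 54.7 units, was higher than the 27.4 of the control array. On the LNCaP ATO array the CD44 spot had a local background of 149.5 units, above the limit of 142.8. Without spots in bright background, CD44 and VIM had no value between the ATO arrays.

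FN1, the fibronectin gene, was not well above background on any array, with 7.65 and 13.7 units in LNCaP cells and 13.5 and 15.1 in PC3 cells. Its single probe, given above, was thus without a measured value in either line. Which FN1 transcripts it matches beyond the assigned variant was not tested. ZEB2 was likewise not well above background on any array with either of its probes, whose intensities ran from 5.54 to 13.5 units.

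ZEB1, a repressor of CDH1, gave 92.4 units on the PC3 control array and 115 on the PC3 ATO array with 1 of its 2 probes. The same probe was not well above background in LNCaP cells, at 6.62 and 12.3 units. The other ZEB1 probe was not well above background on any array, from 5.78 to 17.8 units, so the 2 probes disagree in PC3 cells and the call rests on the brighter. By that probe ZEB1 was at least 2.84-fold higher in PC3 than in LNCaP control cells and at least 1.97-fold between the ATO arrays, and the first falls under 2-fold with normexp background correction (0.74 in log2).

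SNAI2, which encodes SLUG, gave 78.5 units on the LNCaP control array, 110 on the LNCaP ATO array, 496 on the PC3 control array and 350 on the PC3 ATO array. It was higher in PC3 cells by 5.32-fold in control and by 2.98-fold with ATO, and both lines were above background on both arrays. With normexp the second difference was 0.88 in log2, under 2-fold. Of the 3 listed repressors of CDH1, SNAI2 and ZEB1 were thus at least 2-fold higher in PC3 control cells, as were 20.5% of all genes. ZEB1 had a value only through the PC3 arrays and could only come out higher, and ZEB2 had no value. CDH1 itself was within 1.33-fold of its LNCaP level, and a link to these repressors was not tested.

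**Figure D3:**
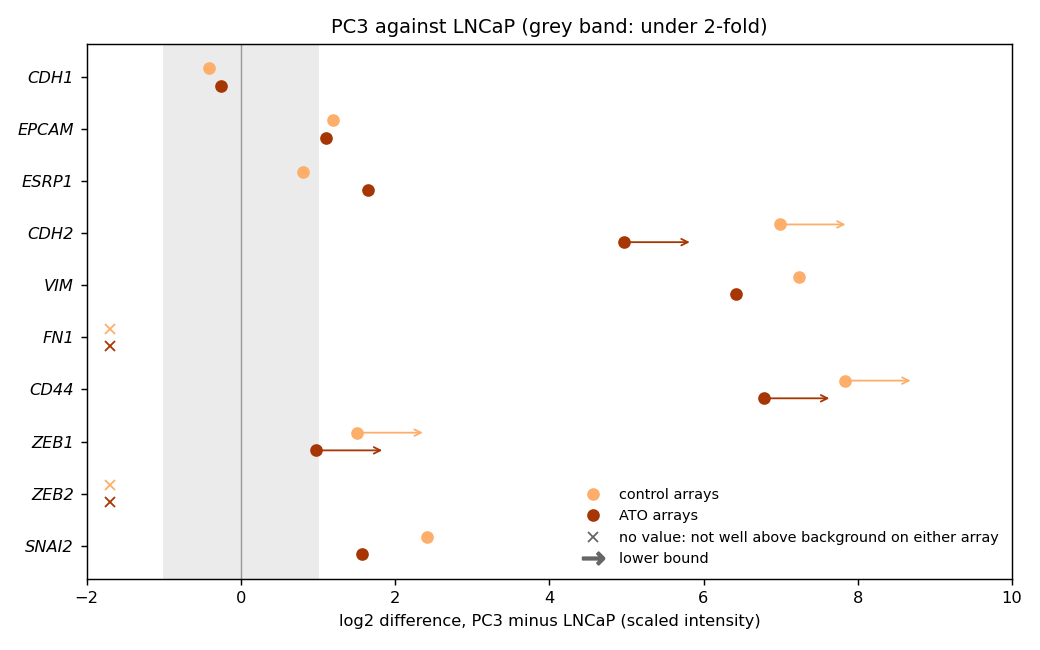
log2 difference in scaled intensity, PC3 minus LNCaP, for the control arrays and the ATO arrays, with arrows where LNCaP was not well above background and the value is a lower bound, and crosses at the left edge for genes with no value. CDH1 is the only member below 0, at -0.41 and -0.26 (above 0 with the spike-in probes), and CD44 has the highest value in both comparisons.

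In the controls, 6 of the 10 members were at least 2-fold higher in PC3 cells, 0 were lower, 2 were within 2-fold and 2 had no value. Over all genes with a value 39.7% of 15237 passed 2-fold, 20.5% higher and 19.2% lower. Between the ATO arrays the members again gave 6 higher and 0 lower, with ESRP1 in the place of ZEB1, against 39.3% of 14148 genes (17.9% higher and 21.4% lower). CD44, CDH2 and ZEB1 had a value only because they were above background in PC3 cells and could only come out higher there. Since the members were chosen with earlier results of these data known, setting their counts beside all genes is no test. The median over genes measured on both arrays was -0.12 in control and -0.18 with ATO, and it moved to -0.56 and -0.40 with the 50th percentile and to 0.39 and 0.09 with the spike-in probes. Of the genes passing 2-fold, 51.7% in control and 45.6% with ATO were higher in PC3 cells, against 32.2% and 35.2% under the 50th percentile and 75.4% and 59.7% with the spike-in probes. VIM, CDH2 and CD44 differed by far more than these shifts, and ESRP1 between the ATO arrays stayed between 1.43 and 1.92 under all 5 scalings and background corrections.

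With ATO and control arrays in 1 fit and treatment as a block, limma could test the line difference on 1 residual degree of freedom. Of 13733 genes, 7993 (58.2%) had an adjusted p under 0.05, so a call among the members says little by itself. Of the 5 members measured in both lines, VIM, SNAI2, ESRP1 and EPCAM were called, higher in PC3 cells. VIM differed by 6.83 ± 0.26 (log2, SE, limma adjusted p = 0.00148, higher on both pairs of arrays). SNAI2 differed by 1.99 ± 0.27 (limma adjusted p = 0.0113), ESRP1 by 1.23 ± 0.27 (limma adjusted p = 0.0323) and EPCAM by 1.15 ± 0.14 (limma adjusted p = 0.00892). CD44, CDH2 and ZEB1 entered the fit only through the PC3 arrays and could only come out higher there, so no p is given for them. Their mean bounds were at least 158-fold, 63.0-fold and 2.37-fold. CDH1 was not called, with -0.33 and a 95% confidence interval from -0.76 to 0.09 (limma adjusted p = 0.128), an interval that leaves room for a lower level in PC3 cells. It was called with the 50th percentile (-0.66) and when the prior followed intensity, and EPCAM and ESRP1 lost their calls with no filter on dim probes.

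Few members differed with ATO in LNCaP cells. Of the 5 with a value, VIM was the 1 that passed 1.5-fold, at 1.97-fold higher (0.98 in log2). Over all genes with a value 4.76% of 13739 passed, 2.75% higher and 2.01% lower, so that 57.8% of those passing were higher, against 77.1% with the spike-in probes and 46.3% with normexp. VIM went from 65.3 to 138 units, where the software gave errors of 13.9% and 13.3%. Dim probes moved the same way on these arrays: the 16919 probes not well above background on either LNCaP array had a median difference of 0.81, and the 8 such member probes lay between 0.74 and 1.004, about the size of the VIM difference. With normexp the VIM difference was 0.53 in log2, under 1.5-fold. The 5 PC3 markers summed to 62.5 and 101 units on the same 2 arrays, against 86187 on the PC3 control array. The part of either in the VIM difference was not tested. SNAI2 was 0.38 higher, at low intensities of 78.5 and 110 units with software errors of 13.0% and 14.8%. CDH1 was 0.14 higher and EPCAM 0.09. These differences were all under 1.5-fold and positive under all 5 scalings and background corrections tried. ESRP1 was at -0.06, positive (0.10) with the spike-in probes. In LNCaP cells the 3 epithelial members thus stayed within a difference of 0.14 under the main scaling. With the spike-in probes CDH1 was at 0.29 and EPCAM at 0.25.

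In PC3 cells CDH2 and ESRP1 passed 1.5-fold in opposite directions. CDH2 was 2.18-fold lower with ATO by its brighter probe and 1.94-fold lower by the other (-1.12 and -0.96 in log2). ESRP1 was 1.73-fold higher (0.79), from 899 to 1503 units. Both genes passed 1.5-fold in these directions under all 10 other settings tried at this threshold, with ranges over the 5 scalings of -1.21 to -0.93 for CDH2 and 0.65 to 0.99 for ESRP1. In the same cells 18.4% of 13815 genes passed, 8.21% higher and 10.2% lower, against 2 of the 8 members with a value. The higher genes made up 44.5% of those passing, against 70.5% with the 50th percentile and 31.6% with the spike-in probes.

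The other 6 members with a value stayed under 1.5-fold in PC3 cells. ZEB1 was at 0.37 and CDH1 at 0.29, both positive under all 5 scalings. VIM was at 0.17, also positive under all 5, and SNAI2 at -0.46, negative under all 5. CD44 was at -0.16, turning to 0.04 with the 50th percentile, and EPCAM had a scaled level of 18.4 on both PC3 arrays. VIM and CD44, the other mesenchymal members far above LNCaP cells, thus stayed under 1.5-fold where CDH2 was lower. For CDH1, the spots ran from 8.46 to 10.6 in scaled level on the PC3 control array and from 9.87 to 12.2 with ATO, so the copies overlapped.

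**Figure D4:**
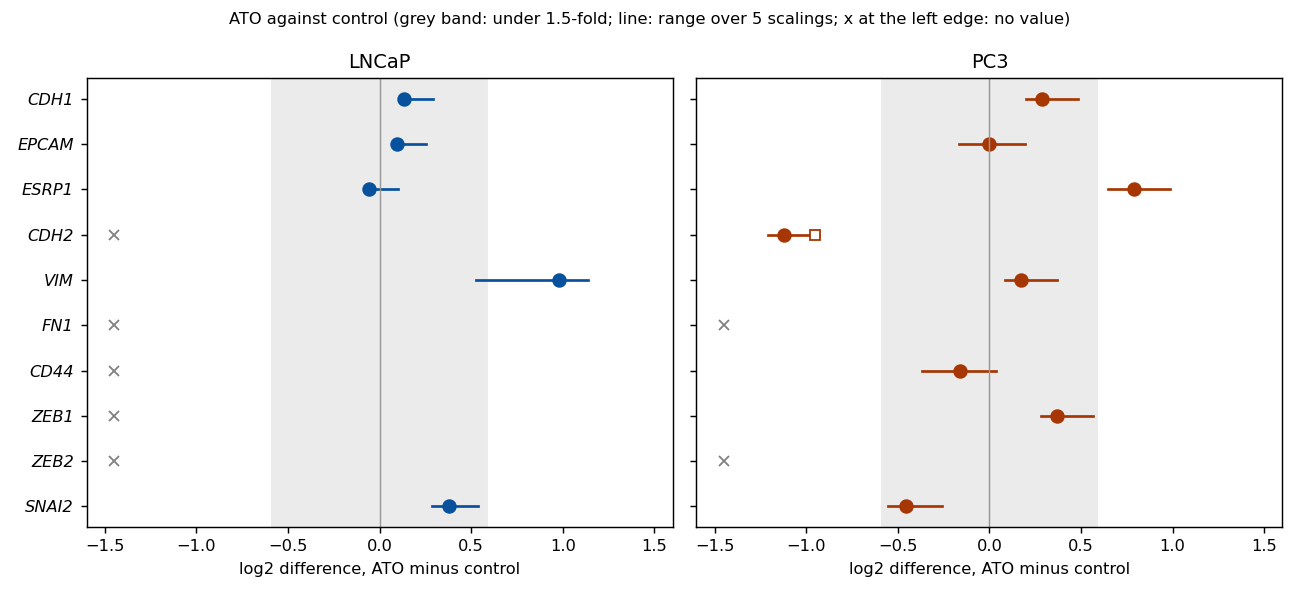
log2 difference, ATO minus control, in LNCaP (left) and PC3 cells (right), with the range over 5 scalings as a line, the second CDH2 probe as an open square and crosses at the left edge for members without a value. VIM in LNCaP cells at 0.98, and CDH2 at -1.12 and ESRP1 at 0.79 in PC3 cells, lie outside the grey band of 1.5-fold.

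With the lines as a block, limma called 0 of 11902 genes for ATO (0.0%), with 531 at an unadjusted p under 0.05 and a lowest adjusted p of 0.762. Among the 5 members tested, VIM had the greatest difference, 0.58 ± 0.25 (log2, SE, limma adjusted p = 0.762, higher in both lines). The fit rests on how alike the ATO difference was in both lines, so it cannot decide on an effect present in 1 line. CDH2 could not be tested for ATO in this fit because it was measured in 1 line, and the ATO differences above are descriptions of 2 arrays each.

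The wider epithelial programme, a list of 40 genes of junctions, keratins and epithelial transcription factors, was expressed in both lines. A probe was well above background for 37 of 40 genes on the LNCaP control array and 36 with ATO, and for 39 on each PC3 array. Between the controls, 12 of 39 with a value were at least 2-fold higher and 8 lower in PC3 cells (14 and 7 with ATO). Over all genes 20.5% were higher and 19.2% lower in control, and 17.9% and 21.4% with ATO. The control median of the list was 0.26 (all genes -0.05). It turned to -0.18, with 10 higher and 12 lower, under the 50th percentile. The higher genes included the keratins KRT19 (89.1-fold) and KRT7 (52.8-fold) and P-cadherin (CDH3, 98.6-fold), and S100A14 was at least 166-fold higher. The desmosome gene DSC2 was 9.39-fold lower in PC3 cells. The luminal keratins KRT8 and KRT18 differed by 1.69-fold and 1.38-fold, higher in PC3 cells. Among regulators, GRHL2 was 1.64-fold lower and OVOL2 1.55-fold higher in PC3 cells, neither past 2-fold, while OVOL1 was 2.68-fold higher and ESRP2, the paralogue of ESRP1, 2.50-fold lower. The epithelial programme was thus present in both lines, with genes past 2-fold in either direction.

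Part of this list was higher with ATO in PC3 cells. Like the mesenchymal list, it was chosen with earlier results of these data known, so setting its counts beside all genes is no test. Of 39 genes with a value, 10 were at least 1.5-fold higher and 0 lower, where 8.21% of all genes were higher and 10.2% lower, with a median of 0.34 against -0.01 over all genes, and over the 10 other settings the counts were 7 to 16 higher and 0 lower. ELF3, an epithelial transcription factor, was 2.51-fold higher (2461 to 5980 units), S100A14 2.44-fold (5410 to 12784), OVOL1 1.87-fold (798 to 1445) and DSC2 1.68-fold (200 to 326). TJP3, KRT19, EHF, JUP, GRHL1 and OCLN made up the rest, from the threshold up to 1.67-fold. KRT8 (-0.18), KRT18 (-0.26), GRHL2 (-0.22), OVOL2 (0.14) and ESRP2 (-0.02) were among the 29 within 1.5-fold. In LNCaP cells 0 of 37 genes passed in either direction, with a median of 0.03, and OVOL1 was there at -0.42. A second, dimmer KRT8 probe was 1.78-fold lower in LNCaP cells with ATO (162 to 97.8 units), where the brighter was 1.07-fold higher.

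The mesenchymal list, 44 genes of matrix, cytoskeleton and transcription factors, had more genes above background in PC3 than in LNCaP cells. A probe was well above background for 12 of 44 genes on each LNCaP array, and for 29 on the PC3 control and 27 on the PC3 ATO array. Of the 12 measured in both controls, 7 were at least 2-fold higher and 1 lower in PC3 cells. Over all genes measured on both control arrays, 3760 of 11775 passed 2-fold in either direction. SRGN, AXL, EMP3 and CDH11 had the highest bounds in control, at least 438-fold, 283-fold, 130-fold and 98.9-fold. These genes were not well above background on either LNCaP array, so they could only come out higher in PC3 cells. TWIST1, a transcription factor of the transition, went the other way, with 1866 units in LNCaP and 678 in PC3 control cells, 3.27-fold lower, by 1 of its 2 probes, the other being not well above background on any array. SNAI1, a repressor of CDH1, differed little between the controls, at 193 and 179 units.

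In PC3 cells 8 of 29 mesenchymal genes with a value were at least 1.5-fold lower with ATO and 3 higher, where 10.2% of all genes were lower and 8.21% higher, with a median of -0.28 against -0.01 over all genes. ACTA2 and TCF4 had a value only through the control array and could only come out lower. Of the 27 genes measured on both arrays 6 were lower, with a median of -0.23. The 8 lower numbered 5 with the 50th percentile and 12 with the spike-in probes. The list median was then -0.08 (all genes 0.19) and -0.37 (all genes -0.09). With no filter on dim probes the median over all 44 genes was -0.0048 (all genes 0.07). The actin gene ACTA2 went from 153 units to 44.9, not well above background, at least 2.75-fold lower, and TAGLN from 808 to 362, 2.16-fold lower by its brighter probe and 1.32-fold by the other. TCF4 was at least 1.99-fold lower. The 3 higher were SNAI1 (1.94-fold, from 179 to 336 units), S100A4 (1.93-fold) and EMP3, just past the threshold, while TWIST1 was at -0.51, under 1.5-fold. In LNCaP cells 3 of 12 were higher, S100A4 (1.67-fold), COL5A2 (1.61-fold) and ACTA2 (1.58-fold), and 0 lower, at intensities of 78.3 to 175 units, where 2.75% of all genes were higher. With normexp 0 of the 12 passed in either direction, and dim probes as a whole read higher on the LNCaP ATO array, as given above.

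**Figure D5:**
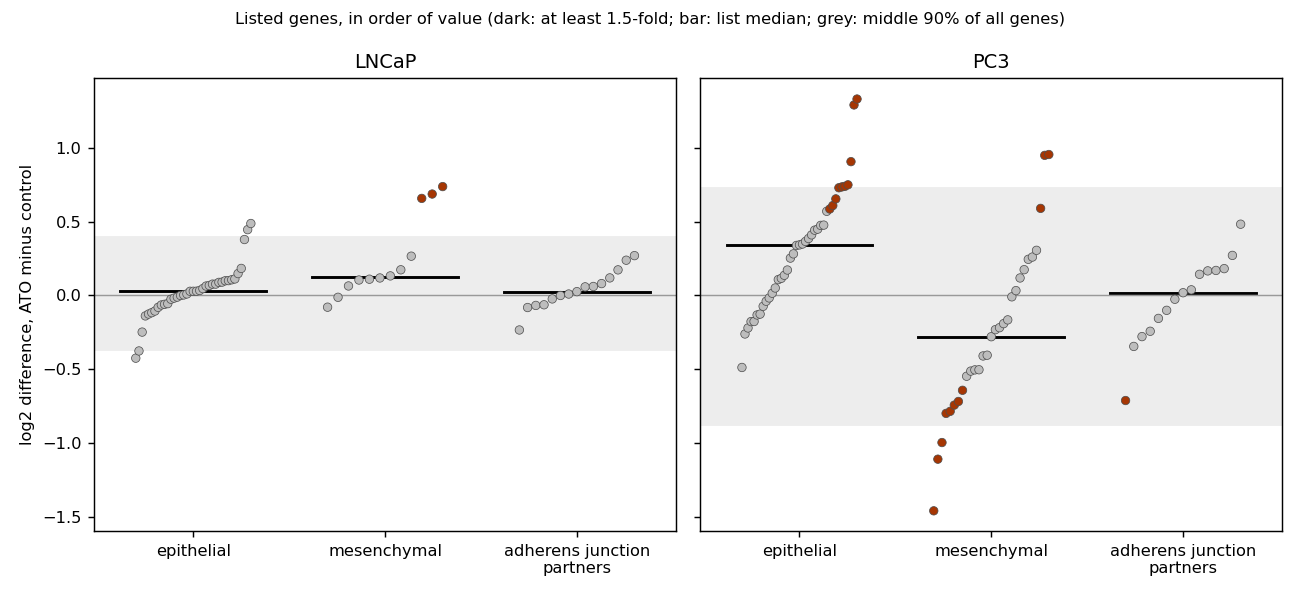
log2 difference, ATO minus control, of each listed gene with a value in LNCaP (left) and PC3 cells (right), in order of value within its list, with the list median as a bar and the middle 90% of all genes in grey (bounds are drawn at their bound). In PC3 cells the epithelial median is 0.34 and the mesenchymal median -0.28, against 0.03 and 0.13 in LNCaP cells. The -0.28 becomes -0.23 over the genes measured on both arrays.

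Of the partners of E-cadherin, CTNNA1 had the widest gap between the lines. This gene, which encodes the alpha-catenin that ties the cadherin complex to actin, gave 4264 and 5408 units in LNCaP cells and 12.3 and 12.2 in PC3 cells, control first, the latter not well above background. Its second probe gave 2172 and 2527 units in LNCaP cells and 10.8 and 13.4 in PC3 cells, not well above background either. CTNNA1 was thus at least 97.2-fold lower in PC3 control cells by the brighter probe and at least 49.5-fold by the other, and at least 107-fold and 50.2-fold with ATO. CTNNB1 (beta-catenin) was 1.06-fold lower in PC3 control cells by its brighter probe and 1.38-fold by the other, and CTNND1 (p120-catenin) was 1.57-fold higher by its brighter probe and 1.37-fold lower by the other. E-cadherin transcript was therefore present in PC3 cells at a level near that of LNCaP cells while alpha-catenin transcript was not detected there.

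Across the 19 partners on the array, 4 of 16 with a value were at least 2-fold higher in PC3 control cells and 3 lower, a share near that of all genes (20.5% higher and 19.2% lower), with a median of 0.16 (all genes -0.05). LMO7, a junction protein, was 41.6-fold higher and vinculin (VCL) 4.58-fold higher in PC3 cells, and ARVCF, a p120 relative, 2.95-fold lower. With ATO 0 of 15 passed 1.5-fold in LNCaP cells (4.76% of all genes) and in PC3 cells 1 of 15 (18.4% of all genes), PKP4, at 1.64-fold lower by its brightest probe while another of its probes was 1.24-fold higher. CTNNB1 was at 0.06 in LNCaP and -0.03 in PC3 cells and CTNND1 at 0.17 in LNCaP and 0.48 in PC3 cells. CTNNA1 was 1.18-fold higher with ATO in LNCaP cells and had no value in PC3 cells.

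The genes whose 4 log2 levels, each centred on its own mean, lay nearest to those of CDH1 were FAM178B, CDK9 and LOC100129104, with root mean square distances of 0.01 among 11015 genes measured on all 4 arrays. For VIM they were IER3 (0.28), the transcript ENST00000405395 (0.40) and the keratin KRT19 (0.43). IER3 went from 158 and 195 units in LNCaP cells to 20580 and 22282 in PC3 cells. With 4 arrays this likeness is a description only, and for CDH1 it describes a nearly flat profile.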

How the data were processed

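Gene expression was measured on 4 one-colour Agilent arrays, 1 for each of LNCaP and PC3 cells with and without ATO. Per the file headers, the intensity values were made with Agilent Feature Extraction 9.5.3.1, which subtracts the background and flags outlier spots, and probe coordinates are hg18. The authors also deposited a table of ratios of each probe to the array's 75th percentile, with low values set to 0.03, used as an alternative. No per-sample column went unassigned.

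The log2 processed signal was averaged over spots, without outlier spots, and scaled on each array's 75th percentile. A gene was taken by its brightest probe. Where a probe was not well above background on 1 array, the lowest level so marked there gave a bound. Differences were called at 1.5-fold for ATO and 2-fold for the lines, with no p. Line and treatment were also tested by limma 3.58.1 (R 4.3.3), each with the other as a block and two-sided, with Benjamini-Hochberg adjustment, on 1 residual degree of freedom, and the procedure was tested on simulated data. Whether the arrays came from separate cultures is not stated. The p-values for the lines rest on how far the line difference agreed between control and ATO arrays. Those for ATO rest on how far the ATO difference agreed between the lines. Neither measures the spread between cultures.

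Members and gene lists were chosen with earlier results of these data known. Named genes are the 10 members, the 4 largest differences past the threshold per list and comparison, the 3 nearest profiles of CDH1 and VIM, and GRHL2, OVOL1, OVOL2, ESRP2, SNAI1, TWIST1, CTNNB1, CTNNA1, CTNND1, KRT8 and KRT18. AFDN is not on the array by that name. JUP, TJP3, EHF, GRHL1, OCLN and PKP4 were named after their values were seen. Other scalings, background corrections, filters and thresholds were tried. Figures and tables were made with Python 3.11.15, numpy 2.4.6 and pandas 2.3.3.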

Additional observations from a re-analysis of the deposited data

Results flagged for a closer look

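For 3 members the ATO effect had opposite signs in the lines, with 1 array per group, so the difference was not tested. For ESRP1 the effect in PC3 cells minus that in LNCaP cells was 0.85 in log2, from 0.79 and -0.06, and both effects were positive with the spike-in probes (0.70 and 0.10). For SNAI2 it was -0.83, from -0.46 and 0.38. Its LNCaP values were low, at 78.5 and 110 units, and dim probes had a median difference of 0.81 between the LNCaP arrays. The part of this shift in the SNAI2 value was not tested. For EPCAM the difference between the 2 effects was -0.0932, with a scaled level of 18.4 on both PC3 arrays. Both EPCAM effects were positive with the 50th percentile (0.20 in PC3 and 0.07 in LNCaP cells). The SD that copies of a probe give for a difference between 2 arrays was 0.13, above the LNCaP values of ESRP1 and EPCAM.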

How the results depend on the processing

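The labels give no replicate numbers to pair arrays by, and the limma fit for ATO had the cell line as its block. For ATO in LNCaP cells, 654 genes passed 1.5-fold, against 354 with normexp, 338 with both arrays well above background, 11687 with no filter on dim probes, 365 without bright local backgrounds, 1786 in the deposited table and 329 at 2-fold, and the members passing went from 1 to 0 with normexp and at 2-fold and to 6 with no filter. In PC3 cells 2548 genes became 4953 with no filter, 1588 without bright backgrounds, 4160 in the deposited table and 841 at 2-fold, where 1 member instead of 2 passed. For the lines, 6044 genes in control and 5559 with ATO became 3760 and 3573 with both arrays well above background and 2442 and 2100 at 4-fold. The 6 members passing became 3 in control with both arrays well above background, and 3 with ATO at 4-fold. By limma, 7993 line calls became 4521 with no filter, and the 0 ATO calls became 12 with the 50th percentile and 2 with the spike-in probes. Signs turned for the CDH1 line difference with the spike-in probes (0.0603), for the SNAI2 ATO difference with the 50th percentile (0.0476) and for that of EPCAM with normexp (-0.0157), all by limma. The cause was not tested. Of the other single-gene values, 294 stayed on their side of the test or within the spread of copies, EPCAM with ATO in PC3 cells among them with a turned sign (0.0023 in the deposited table), and 84 moved further. Some of the 84 also turned sign, all under the fold threshold in the main setting. With the spike-in probes these were CDH1 between the lines (0.11 in control, 0.01 with ATO) and ESRP1 with ATO in LNCaP cells (0.10). With the 50th percentile they were CD44 (0.04) and EPCAM (0.20) with ATO in PC3 cells. Signal over background limits CDH2, CD44 and ZEB1 in LNCaP cells, and FN1 and ZEB2 everywhere.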

Other observations

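Of 7 fibroblast markers 1, COL1A1, was well above background, and it was so on all 4 arrays, with the list summing to 123 to 209 units. Of 4 leukocyte markers 1, PTPRC, was above background on the LNCaP control array and 0 on the others, and of 4 endothelial markers 1 or 2 were above background on each array. Their part in the line and ATO differences was not tested.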
